A study of Mus musculus with 7 samples.

Results

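Polycomb group proteins are chromatin repressors, and 10 of their genes are described here across all 7 libraries: Ezh1, Ezh2, Eed and Suz12 of Polycomb repressive complex PRC2, and Bmi1, Ring1, Rnf2, Cbx2, Cbx7 and Pcgf6 of PRC1. The genes were chosen by symbol among the 22680 rows of the expression table, and all 10 were found. All 10 also had a mean of at least 1 FPKM over the stem cell libraries, as did 10608 rows in all. FPKM counts read fragments per transcript length and library size, so it can be set side by side between genes. The cells were sorted from fetal livers of C57BL/6 mice at 13.5 days post coitum. Wild-type LSK cells (3 libraries) and Uhrf1-/- LSK cells (3 libraries) are negative for lineage markers and positive for both c-Kit and Sca-1, the fraction in which hematopoietic stem cells lie. About 10000 cells were sorted per LSK sample, at a purity above 95% per the labels. A single library came from wild-type LK cells, which carry c-Kit but not Sca-1 and are more mature progenitors. The labels give neither the extent and cell type of the Uhrf1 deletion nor whether livers were pooled.

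PRC2 methylates histone H3 at the residue H3K27, through Ezh2 or its paralog Ezh1, with Eed and Suz12 as obligate partners. PRC1 adds ubiquitin to histone H2A through Ring1 or Rnf2. In canonical PRC1, a Cbx protein such as Cbx2 or Cbx7 binds the methylated histone and a Pcgf protein such as Bmi1 completes the enzyme. Pcgf6 belongs to a variant PRC1 without these Cbx proteins. In blood formation Bmi1 is known for sustaining stem cell self-renewal and for keeping the cell cycle inhibitor locus Cdkn2a silent, and Ezh2 is known to be needed for fetal liver hematopoiesis. Uhrf1 serves another silencing system, the copying of CpG methylation to new DNA strands.

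The promoters of 9 members had an entry in the RefSeq table for GRCm38.p6, each spanning 250 bases before to 50 bases after a listed start of transcription. For Ezh2, Cbx7 and Pcgf6 this start lies inside the RefSeq span of the gene, so it is not the outermost one. Cbx2 had none. These windows held between 17 (Eed) and 41 (Suz12) CpG dinucleotides, with a median of 30. The median was 7 over all 32851 promoters in the table and 21 over the 10813 promoters of genes tested. Ezh1 and Ring1 are shown because their levels leaned in opposite directions between the genotypes. The capitals mark CpG, the base pair step whose methylation Uhrf1 maintains. The Ezh1 stretch is chr11:101226464-101226713 (minus strand) and the Ring1 stretch is chr17:34024681-34024930 (minus strand), both 5′ to 3′ and ending at the base before the start.
Ezh1: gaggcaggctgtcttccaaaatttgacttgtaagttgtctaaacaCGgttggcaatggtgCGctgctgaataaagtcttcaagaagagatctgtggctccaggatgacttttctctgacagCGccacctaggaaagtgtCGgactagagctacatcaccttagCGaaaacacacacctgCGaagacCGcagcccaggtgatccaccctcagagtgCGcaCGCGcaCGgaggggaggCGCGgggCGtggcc
Ring1: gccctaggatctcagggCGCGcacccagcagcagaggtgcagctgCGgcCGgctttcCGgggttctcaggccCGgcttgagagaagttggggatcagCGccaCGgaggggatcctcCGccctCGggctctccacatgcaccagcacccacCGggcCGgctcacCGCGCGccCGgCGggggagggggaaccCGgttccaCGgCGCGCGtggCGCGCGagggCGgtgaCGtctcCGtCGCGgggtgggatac
The Ezh1 window of 300 bases held 23 CpG and the Ring1 window 37, more than 78.5% and 94.4% of all promoters in the table.

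The letters TTTCCCGC and TTTGGCGC, forms of the site bound by the cell cycle factors of the E2F family, were searched on both strands. They were found in 2 of the 9 windows, those of Suz12 and Ezh2, and in 1.56% of all promoters and 3.17% of the promoters of genes tested. The matches are shown in capitals because Ezh2 and Suz12 also had alike levels across the libraries. A match describes the letters and not a bound site. The Suz12 stretch is chr11:79992856-79993105 (plus strand), with the match 219 to 212 bases before the start. The Ezh2 stretch is chr6:47595011-47595130 (minus strand), with 100 bases before and 20 bases after the listed start. Its match is at bases 4 to 11 from that start. The whole stretch lies inside the RefSeq span of Ezh2 (chr6:47530274-47595270).
Suz12: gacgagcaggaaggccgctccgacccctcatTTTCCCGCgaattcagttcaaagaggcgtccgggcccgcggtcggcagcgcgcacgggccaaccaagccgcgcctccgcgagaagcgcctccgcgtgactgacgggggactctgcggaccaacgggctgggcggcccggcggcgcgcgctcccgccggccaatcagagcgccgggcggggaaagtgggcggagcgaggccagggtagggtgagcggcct
Ezh2: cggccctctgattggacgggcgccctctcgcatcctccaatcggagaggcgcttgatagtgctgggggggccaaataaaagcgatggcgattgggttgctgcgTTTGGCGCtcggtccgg

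The libraries held between 16808524 and 25803048 estimated reads, and a member had between 30 (Cbx7 in the LK library) and 4644 estimated reads in a library. Uhrf1 itself stood at 63.0, 66.8 and 112.8 FPKM in wild-type LSK and at 10.2, 8.78 and 18.6 FPKM in Uhrf1-/- LSK libraries, so its level went with the genotype labels. Wild-type LSK replicate 2 stood apart: ribosomal protein genes took 4.75% of its count values and 10.6% to 15.7% in the other 6 libraries. Replicate 3 of both genotypes stood apart too, with 9 immediate-early genes summing to 81.3 and 155.4 FPKM there and to between 1335 and 1853 FPKM in the other LSK libraries. Ly6a, which encodes Sca-1, stood between 26.4 and 96.4 FPKM in LSK cells and at 0.321 FPKM in the LK library, but the 10 LSK markers together summed to 521.9 to 806.3 FPKM in wild-type and 366.8 to 502.4 FPKM in Uhrf1-/- LSK libraries, without overlap. Of these 10, 9 had a log2 difference below 0 and Kit, Cd34, Flt3 and Hlf did not overlap, with Flt3 called lower with the replicate block (limma adjusted p = 0.000443). Over all genes tested, 6.16% were lower without overlap and 0.830% were called lower with the block. Ly6a alone went the other way (56.8, 34.3 and 26.4 against 84.6, 96.4 and 36.9 FPKM, difference 0.83). It was higher in 3 of 3 pairs, overlapped and was not called (blocked limma adjusted p = 0.128). The 7 lineage markers summed to 5.84 to 11.6 FPKM in LSK cells, from Cd3e at 0 in all 7 libraries to Itgam at 3.45 to 6.71 FPKM. The 10 macrophage markers summed to 1.21 to 151.2 FPKM in the wild-type and 3.17 to 38.3 FPKM in Uhrf1-/- LSK libraries, and the 8 erythroid markers to 16.8 to 176.8 and 76.7 to 99.2 FPKM. Among the latter, Klf1 (27.1, 20.1 and 2.25 against 34.3, 38.9 and 33.6 FPKM) and Epor (8.89, 5.22 and 1.38 against 15.3, 14.7 and 14.7 FPKM) were higher in each Uhrf1-/- library than in any wild-type one. Epor was called higher with the block (limma adjusted p = 0.027). Of the 4 erythroid markers tested, 2 were above 0 and 2 below, namely Hba-a1 (-0.19) and Hba-a2 (-0.36). Over all genes tested, 4.61% were higher without overlap and 1.23% were called higher with the block. The part of these markers in the results below was not tested. In sorted bulk samples, fewer cells of a type and less RNA per cell cannot be told apart.

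In wild-type LSK cells the members' levels were widely spread, with PRC2 subunits both at the top and near the bottom. Eed led with 46.5 ± 10.9 FPKM (SD, n = 3), followed by Ezh2, Rnf2, Suz12, Pcgf6, Cbx2, Ring1, Bmi1, Ezh1 and, lowest, Cbx7 with 3.31 ± 0.811 FPKM. Among neighbours in this order, only Ezh2 and Rnf2 had wild-type ranges that did not overlap, and Ezh2 was above Rnf2 in 6 of 6 LSK libraries. The other 8 neighbouring pairs overlapped. The levels reached from the 21.5th (Cbx7) to the 79.6th percentile (Eed) of genes tested.

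**Figure D1:**
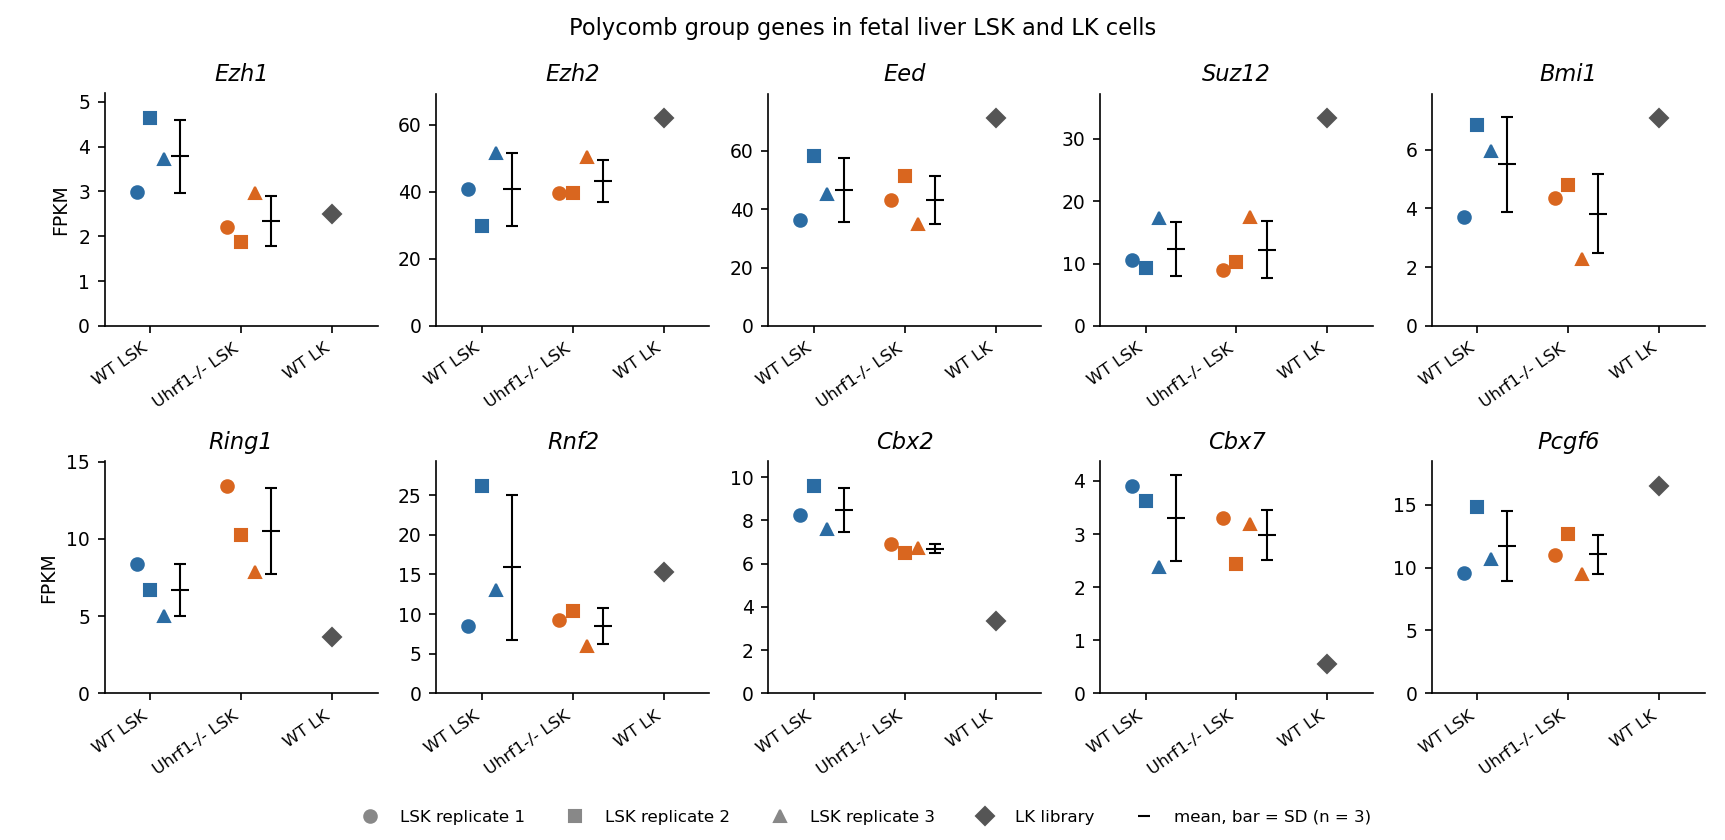
Level of each of the 10 Polycomb group genes in FPKM (vertical axis, from 0) in wild-type (WT) LSK, Uhrf1-/- LSK and WT LK libraries. Each point is a library, its shape gives the LSK replicate number, and the black mark and bar give mean and SD of 3 libraries. The genotypes did not overlap for Ezh1 and Cbx2, and Suz12 (33.2 FPKM) and Cbx7 (0.555 FPKM) stood far from the LSK values in the LK library.

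The genotype comparison in LSK cells asks whether loss of a DNA methylation factor went along with altered expression of the Polycomb machinery. No member was called changed. Of the 10 members, 0 passed limma at an adjusted p under 0.05, and 0 had an unadjusted p under 0.05. Over all genes tested, 0.170% were called by the same rule (0.113% higher and 0.0566% lower) and 5.57% had an unadjusted p under 0.05. With the replicate number as a block, 0 members were called where 2.06% of all genes were (1.23% higher and 0.830% lower), and 3 members (Rnf2, Ring1 and Ezh1) had an unadjusted p under 0.05, as did 12.0% of all genes. The differences lay between -0.72 (Rnf2) and 0.58 (Ring1) on the log2(FPKM + 1) scale, with 2 above and 8 below 0 and a median of -0.10. The median over all genes was -0.03. The smallest absolute difference called among all genes was 1.58 without the block and 0.90 with it, above that of every member. For 6 of 10 members the 95% interval lay within 1 log2 unit of 0 on both sides, and for Ezh1, Bmi1, Ring1 and Rnf2 it reached past it.

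**Figure D2:**
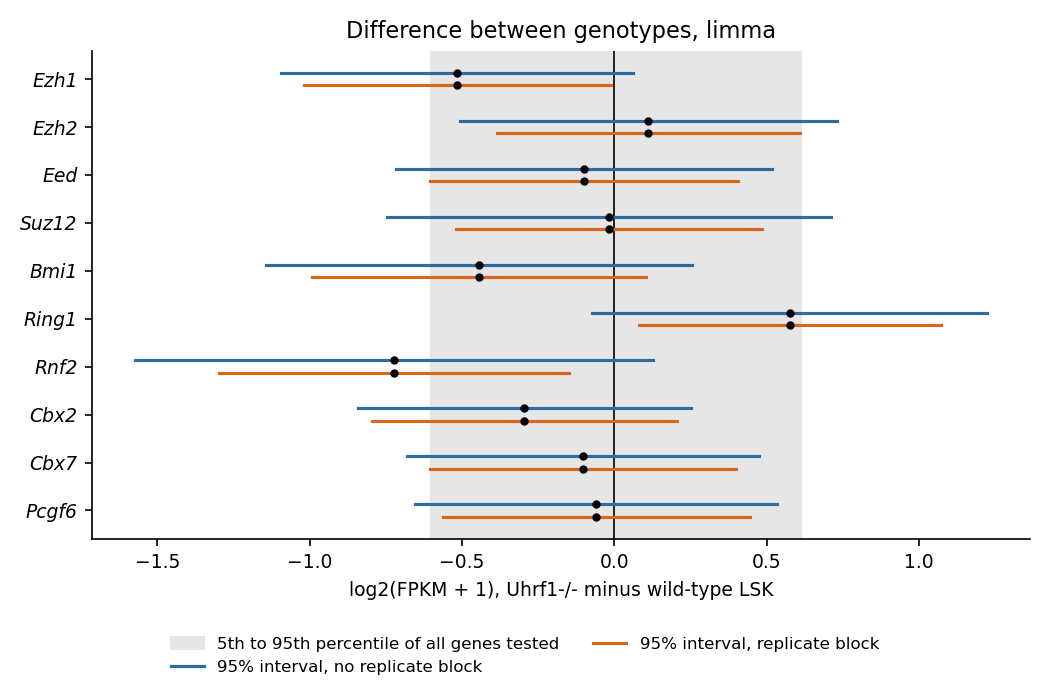
Difference of each member between Uhrf1-/- and wild-type LSK cells on the log2(FPKM + 1) scale (horizontal axis), as black dots with 95% limma intervals without (blue) and with (orange) the replicate block. The grey band spans the 5th to 95th percentile of all genes tested (-0.60 to 0.61). The blue intervals of all 10 members cross 0, and the orange intervals of Rnf2, Ring1 and Ezh1 do not.

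Among the PRC2 members, the methyltransferase gene Ezh2 (Entrez gene 14056, chr6:47530274-47595270) stood at 40.8, 29.7 and 51.6 FPKM in the wild-type and 39.7, 39.6 and 50.5 FPKM in Uhrf1-/- LSK replicates 1, 2 and 3. The groups overlapped, and in both genotypes replicate 3 was the highest library. The log2 difference was 0.11 (95% interval -0.51 to 0.73, limma adjusted p = 0.968).

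Ezh1 (Entrez gene 14055, chr11:101191115-101226463) encodes the paralog of Ezh2, which is known for weaker methyltransferase activity and for expression in resting cells. It stood at 3.0, 4.63 and 3.73 FPKM in the wild-type and 2.20, 1.88 and 2.97 FPKM in Uhrf1-/- LSK libraries. Every Uhrf1-/- library lay below every wild-type library, though the nearest values were 3.0 and 2.97 FPKM. The difference was -0.52 (SE 0.26, 95% interval -1.09 to 0.06, limma adjusted p = 0.942), with a lower value in 3 of 3 pairs of the same number.

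Eed (Entrez gene 13626, chr7:89954654-89980976), which binds the methylated histone tail and stimulates the enzyme, stood at 36.4, 58.1 and 45.1 FPKM in the wild-type and 43.0, 51.3 and 35 FPKM in Uhrf1-/- LSK libraries. Replicate 2 was highest in both genotypes, and the groups overlapped. Its difference was -0.10 (95% interval -0.72 to 0.52, limma adjusted p = 0.971). The scaffold subunit gene Suz12 (Entrez gene 52615, chr11:79993106-80034123) stood at 10.5, 9.20 and 17.3 FPKM in the wild-type and 8.94, 10.3 and 17.4 FPKM in Uhrf1-/- LSK libraries. Both replicate 3 libraries were above the other 4, and their values were nearly equal between the genotypes. The difference was -0.02 (95% interval -0.75 to 0.71, limma adjusted p = 0.997).

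Of the PRC1 ligases, Ring1 (Entrez gene 19763, chr17:34020792-34024680) stood at 8.38, 6.72 and 5.0 FPKM in the wild-type and 13.4, 10.2 and 7.87 FPKM in Uhrf1-/- LSK libraries. The groups overlapped, since the lowest Uhrf1-/- value was below the highest wild-type value. Within pairs of the same number Ring1 was higher in Uhrf1-/- cells each time, by 0.62, 0.54 and 0.56 log2 units. The mean was 6.70 ± 1.69 and 10.5 ± 2.79 FPKM (SD, n = 3 each), a difference of 0.58 (SE 0.29, limma adjusted p = 0.942, blocked adjusted p = 0.324). No fit called the gene.

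Rnf2 (Entrez gene 19821, chr1:151469398-151500991), the paralog that supplies most of the ligase activity in many cell types, stood at 8.49, 26.2 and 13 FPKM in the wild-type and 9.21, 10.4 and 5.92 FPKM in Uhrf1-/- LSK libraries. The highest value came from wild-type replicate 2, in which the ribosomal protein share was low. The difference was -0.72 (SE 0.38, limma adjusted p = 0.942) and was -0.31 without that library. Pair 1 went the other way (0.10, against -1.25 and -1.02 in pairs 2 and 3). With the replicate block Rnf2 passed only when pair 1 was left out (-1.14, limma adjusted p = 0.00806), a fit on 4 libraries in which 6.18% of all genes were called. In GENCODE M21, Rnf2 shares 158 bases with the protein-coding gene Trmt1l on the other strand. Cbx7 shares 100 bases with the protein-coding gene Apobec3, Suz12 12515 bases with Gm26563 and Ezh2 5039 bases with Gm26625, all on the other strand. The strand setting is not known, so reads of these overlaps cannot be told apart. On the same strand, Rnf2 shares 3029 bases with Gm36527 and Eed 408 bases with Gm45120, which no strand setting would separate.

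The canonical PRC1 gene Bmi1 (Entrez gene 12151, chr2:18677018-18686629) stood at 3.70, 6.85 and 5.97 FPKM in the wild-type and 4.35, 4.81 and 2.29 FPKM in Uhrf1-/- LSK libraries. The groups overlapped, and Uhrf1-/- replicate 3 was the lowest of all. The difference was -0.44 (95% interval -1.14 to 0.26, limma adjusted p = 0.942) and was -0.19 without Uhrf1-/- replicate 3 and -0.29 without wild-type replicate 2.

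Cbx2 (Entrez gene 12416, chr11:119023019-119031275), a chromodomain subunit that also compacts nucleosomes, stood at 8.23, 9.59 and 7.59 FPKM in the wild-type and 6.89, 6.48 and 6.70 FPKM in Uhrf1-/- LSK libraries. The groups did not overlap, and the mean went from 8.47 ± 1.02 to 6.69 ± 0.208 FPKM (SD, n = 3 each). The difference was small, -0.30 (95% interval -0.84 to 0.25, limma adjusted p = 0.942). Cbx2 and Ezh1 were the 2 of 10 members without overlap, both lower, where 10.8% of all genes tested had none (4.61% higher and 6.16% lower).

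Cbx7 (Entrez gene 52609, chr15:79915804-79971143), a chromodomain subunit known for favouring stem cell self-renewal in blood, stood at 3.91, 3.63 and 2.38 FPKM in the wild-type and 3.31, 2.44 and 3.19 FPKM in Uhrf1-/- LSK libraries. The groups overlapped (difference -0.10, 95% interval -0.68 to 0.48, limma adjusted p = 0.969). Pcgf6 (Entrez gene 71041, chr19:47033617-47050939), of the variant complex that acts at germline genes, stood at 9.57, 14.8 and 10.7 FPKM in the wild-type and 11.0, 12.6 and 9.52 FPKM in Uhrf1-/- LSK libraries. These values overlapped as well, with a difference of -0.06 (95% interval -0.65 to 0.53, limma adjusted p = 0.982).

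Paralogs that can fill the same place in a complex were set against each other within each library. Ezh2 exceeded Ezh1 by 13.6, 6.42 and 13.8 times in wild-type and by 18.1, 21.1 and 17.0 times in Uhrf1-/- LSK libraries. The 2 groups did not overlap, and the LK library had the highest ratio, 24.8. The log2 ratio of Ezh1 to Ezh2 differed by -0.81 between the genotypes (exact permutation test, two-sided, p = 0.10, the smallest that 3 against 3 libraries allow; 0.3 after Benjamini-Hochberg adjustment over 3 ratios). Without wild-type replicate 2, which had the lowest excess of Ezh2, it differed by -0.44. The ratio of Ring1 to Rnf2 was 0.986, 0.257 and 0.384 in wild-type, 1.46, 0.985 and 1.33 in Uhrf1-/- LSK and 0.238 in LK cells. Its log2 difference was 1.43 (exact permutation p = 0.2, adjusted 0.3), and the groups overlapped narrowly, since wild-type replicate 1 (0.986) was above Uhrf1-/- replicate 2 (0.985). Within same-numbered pairs the ratio of Ring1 to Rnf2 was higher in Uhrf1-/- cells in 3 of 3 and that of Ezh1 to Ezh2 lower in 3 of 3 (exact sign-flip permutation within pairs, p = 0.25 each, the smallest that 3 pairs allow). The ratio of Cbx7 to Cbx2 lay between 0.314 and 0.480 in all 6 LSK libraries (log2 difference 0.20, exact permutation p = 0.4, adjusted 0.4) and was 0.165 in the LK library.

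The rest of the Polycomb machinery and its antagonists were covered by 6 lists with 64 genes, of which 55 were tested. None of the 55 was called by limma with or without the block, and 2 had an unadjusted p under 0.05 without it and 4 with it, all higher in Uhrf1-/- cells. Over all genes tested, 5.57% had such a p without the block and 12.0% with it. Of the 55, 2 were higher without overlap and 1 was lower, where 4.61% and 6.16% of all genes tested were. The median difference of the 55 was 0.07. Of 8 other PRC2 subunits tested, 4 were above and 4 below 0 (median 0.01). Those with the largest differences were Phf19, which helps bring PRC2 to CpG islands, and Epop (E130012A19Rik in the table), an elongin-binding PRC2 partner. Phf19 stood at 4.48, 3.21 and 3.61 FPKM in the wild-type and 8.09, 5.94 and 8.31 FPKM in Uhrf1-/- LSK libraries. Its difference was 0.82 (SE 0.26), higher in 3 of 3 pairs and without overlap, and it did not pass (limma adjusted p = 0.486, blocked adjusted p = 0.092). Epop stood at 26.5, 25.4 and 16.6 FPKM in the wild-type and 42.0, 34.9 and 33.7 FPKM in Uhrf1-/- libraries, again without overlap and without passing (difference 0.69, limma adjusted p = 0.770).

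Of 8 other genes tested that were listed with canonical PRC1, Sfmbt1 (0.21) among them, 7 were above 0 (median 0.19). Over all 10608 genes tested, 4894 were above 0. The 7 were led by Pcgf2 (0.46), a Bmi1 paralog, and Phc1 (0.32), a Polyhomeotic protein that lets PRC1 oligomerize. Of 17 other variant PRC1 subunits, 8 were above and 9 below 0 (median -0.02), with Bcorl1 (0.46) and E2f6 (-0.39) farthest out. Among 8 genes of the PR-DUB complex, which removes ubiquitin from H2A, Mbd6 (0.66) and the glycosyltransferase gene Ogt (-0.51) were farthest (median 0.11). The H3K27 demethylase genes Kdm6a and Kdm6b had differences of -0.49 and 0.35. Among 12 Trithorax genes, whose products methylate histone H3 at active genes or assist in it, Setd1a (0.71) and Setd1b (0.39) led and the median was 0.23. Several of these values rested on 1 library. Without wild-type replicate 2, Setd1b and Kdm6b turned to -0.16 and -0.13, and Setd1a stood at 0.13, Mbd6 at 0.26, Pcgf2 at 0.18, Phc1 at 0.16, Ogt at -0.28 and E2f6 at -0.023. Without Uhrf1-/- replicate 3, Bcorl1 stood at 0.058. The values of the genes named in these lists had limma adjusted p-values between 0.942 and 0.943.

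**Figure D3:**
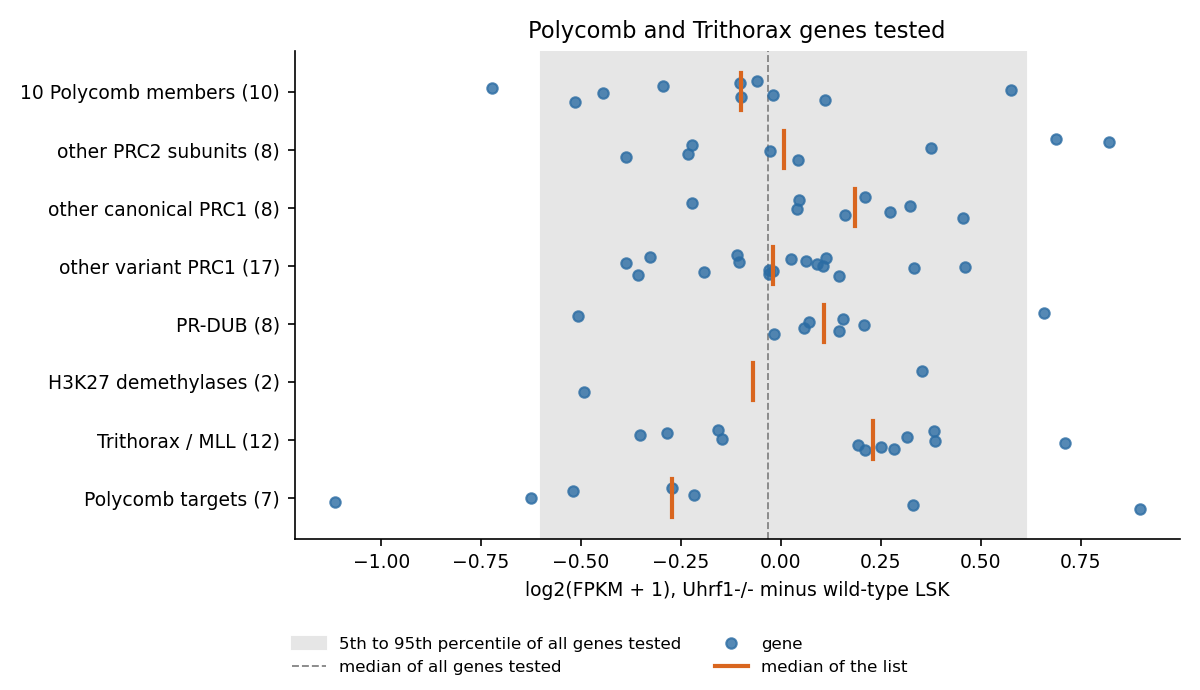
Difference between Uhrf1-/- and wild-type LSK cells on the log2(FPKM + 1) scale (horizontal axis) for each tested gene (dots) of the 10 members and 7 further lists, with the number tested in brackets. Orange marks are list medians, the dashed line is the median of all genes (-0.03) and the grey band is their 5th to 95th percentile. List medians lie between -0.27 (targets) and 0.23 (Trithorax).

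Loci known as Polycomb targets were measured as well. The 32 developmental regulators that Polycomb represses in many tissues stayed under 1 FPKM in every library of both genotypes, and 17 of them were listed at 0 in all 7. The highest single values were 0.999 FPKM for Sox17 in wild-type replicate 2 and 0.764 FPKM for Gata6 in Uhrf1-/- replicate 3. Cdkn2a, the locus most closely tied to Bmi1, was listed at 0 in all 7 libraries. Cdkn2b was listed at 0 in all 6 LSK libraries, and Cdkn2c, Ebf1 and Pax5 had means under 1 FPKM.

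Of 7 tested target genes in blood cells, 0 were called by limma without the block, and 2 had an unadjusted p under 0.05. Over all genes tested, 0.170% were called and 5.57% had such a p. With the block, 2.06% of all genes were called (1.23% higher and 0.830% lower). With the block the homeobox gene Hoxa9 was called lower (28.2, 50.8 and 23.5 against 16.3, 17.3 and 10.4 FPKM; difference -1.12, blocked limma adjusted p = 0.016), and it did not pass without pair 2 or pair 3. The summed LSK markers were lower in the same libraries (366.8 to 502.4 against 521.9 to 806.3 FPKM), and their part in this difference was not tested. Hoxa10 stood at 6.54, 11.7 and 7.48 FPKM in the wild-type and 4.13, 5.15 and 5.99 FPKM in Uhrf1-/- LSK libraries (difference -0.63, blocked limma adjusted p = 0.289). Hoxa9 and Hoxa10 were lower without overlap, 2 of the 7, where 6.16% of all genes tested were. Cdkn1a, the cell cycle inhibitor p21, stood at 7.34, 5.49 and 2.41 FPKM in the wild-type and 14.0, 10.7 and 5.83 FPKM in Uhrf1-/- cells (difference 0.90, blocked limma adjusted p = 0.055, and 0.045 with the block after median-of-ratios scaling or without pair 1). The fetal stem cell genes Lin28b, Hmga2 and Igf2bp3 had differences of -0.22, -0.52 and -0.27, and Cdkn1c, which encodes p57, had 0.33 (-0.096 without wild-type replicate 3). Without wild-type replicate 3, Hmga2 stood at -0.21 and Lin28b at -0.032. Their blocked limma adjusted p-values were between 0.520 and 0.762.

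The LK library was set beside the 3 wild-type LSK libraries to see how the Polycomb genes stood in more mature progenitors. Cbx2, Cbx7 and Suz12 stood farthest from the LSK values. With 1 LK library there is no replicate check and no test. A gene was counted as different where the LK value lay outside the LSK range and at least 2-fold (1 log2 unit) from the LSK mean. By this rule Cbx7 and Cbx2 were lower and Suz12 higher, 3 of 10 members, where 20.8% of all genes tested were counted (8.12% higher and 12.6% lower). Cbx7 stood at 0.555 FPKM, against 2.38 to 3.91 FPKM in wild-type LSK cells (-1.45 log2 units). Cbx2 stood at 3.37 FPKM, against 7.59 to 9.59 FPKM (-1.11). Suz12 stood at 33.2 FPKM, against 9.20 to 17.3 FPKM (1.41), and on the deposited count values it did not reach 2-fold.

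Of the other members, Ezh2 (61.9 FPKM, 0.63 log2 units), Eed (71.1 FPKM, 0.63), Pcgf6 (16.5 FPKM, 0.48) and Bmi1 (7.06 FPKM, 0.34) lay above the wild-type LSK range. Ring1 (3.64 FPKM, -0.71) and Ezh1 (2.49 FPKM, -0.44) lay below it, and Rnf2 (15.3 FPKM) lay within it. In all, 9 of 10 members were outside the range, as were 63.6% of genes tested. Cbx8 (chr11:119036303-119040913), which lies near Cbx2, stood at 4.33 FPKM in LK against 8.67 to 17.3 FPKM in wild-type LSK cells. Both genes were thus below the wild-type LSK range. Phc1 was also low, at 4.97 FPKM against 9.38 to 14.7 FPKM. Of the 55 other Polycomb and Trithorax genes tested, 5 were counted lower in LK by the rule (Phf1, Epop, Cbx8, Phc1 and Mbd6). Only 1, Usp7, was counted higher. Over all genes tested, 12.6% were counted lower and 8.12% higher. The 14 cell cycle genes summed to 2087 FPKM in LK and 1397 to 1750 FPKM in wild-type LSK libraries, and the erythroid markers to 1220 FPKM in LK. The immediate-early genes summed to 47.3 FPKM in LK and the macrophage markers to 1.74 FPKM, against 81.3 and 155.4 and 1.21 and 3.17 FPKM in the replicate 3 LSK libraries. Their part in these differences was not tested.

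**Figure D4:**
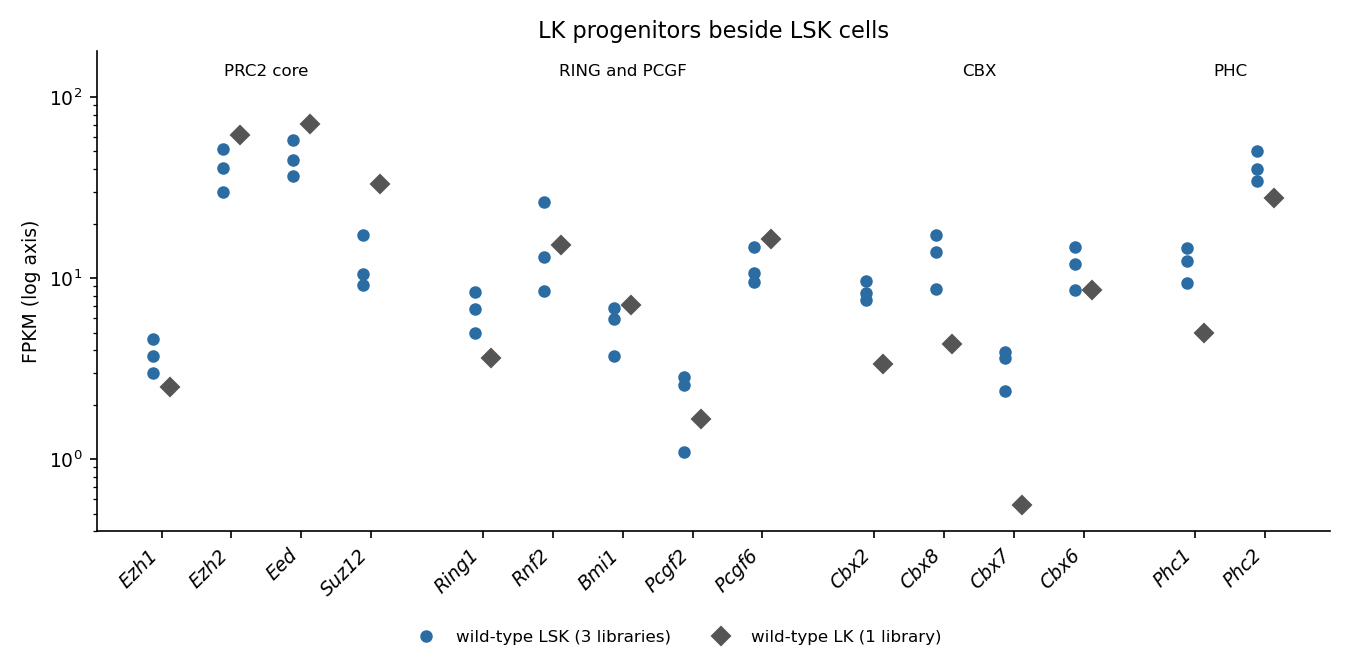
Levels in FPKM (logarithmic vertical axis) of PRC2 core, RING, PCGF, CBX and PHC genes in 3 wild-type LSK libraries (blue circles) and 1 wild-type LK library (grey diamond). The LK value lies below all LSK values for Cbx2, Cbx8 and Cbx7 and above them for Ezh2, Eed and Suz12, while Rnf2 lies within the LSK range.

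Across the libraries the members fell into sets with alike profiles, which were seen in the data and carry no test. Ezh2 and Suz12 had a Pearson r of 0.903 over 7 libraries and 0.858 over the 6 LSK libraries on the log2(FPKM + 1) scale. Both stood higher in replicate 3 of both genotypes than in every other LSK library. These were 2 of 10 members set apart by replicate 3, both higher, where 32.2% of all genes were (16.2% higher and 16.0% lower). Eed and Pcgf6 had an r of 0.985 (0.973 in LSK), and Bmi1 and Rnf2 an r of 0.897 (0.906 in LSK). The cell cycle genes Mki67 and Top2a were also higher in replicate 3, and Cdk1, Birc5 and Ccne1 were lower there. These correlations describe the 7 libraries only. Libraries of 1 replicate number share a pattern over many genes, most of all those of replicate 3. The part of that pattern in the correlations was not tested.

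By likeness to Ezh2 over the 7 libraries, the nearest of all genes tested were Pfas (r = 0.997), a purine synthesis enzyme, Mettl21d (0.997) and Fryl (0.994). Pfas went from 4.69 FPKM in wild-type replicate 2 to 34.7 FPKM in the LK library. Nearest to Ezh1 were Rad54b (0.974), a DNA repair gene, Crat (0.964), the carnitine acetyltransferase gene, and 6430706D22Rik (0.952). Rad54b stood between 3.46 and 5.51 FPKM in the wild-type and between 2.36 and 3.67 FPKM in Uhrf1-/- LSK libraries.

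**Figure D5:**
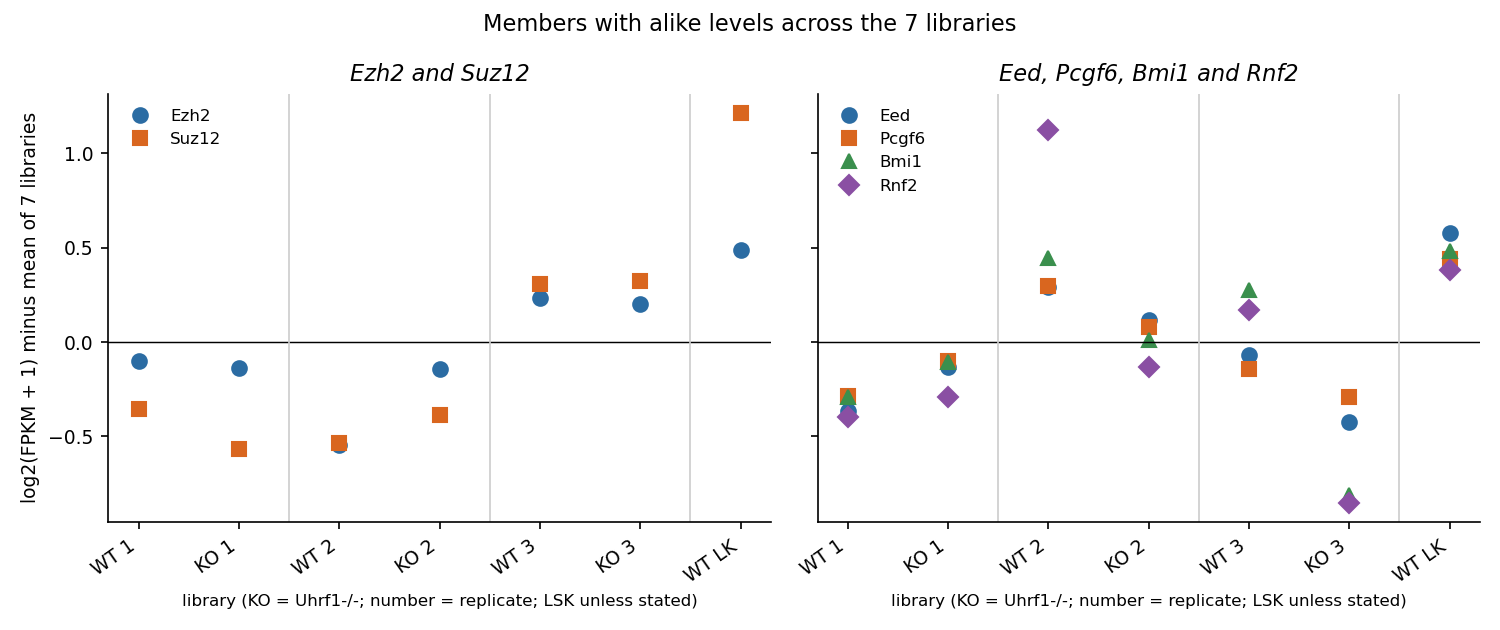
Level of 6 members in each library on the log2(FPKM + 1) scale minus the gene's mean over 7 libraries (vertical axis), with LSK libraries of 1 replicate number side by side (WT wild-type, KO Uhrf1-/-). Ezh2 and Suz12 (left) are highest in replicate 3 and LK, while Eed, Pcgf6, Bmi1 and Rnf2 (right) are highest in WT 2 and LK.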

How the data were processed

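RNA sequencing of sorted fetal liver cells gave 1 table with 2 values per gene and library. The deposited count values (named so per the file headers) have fractions and served as a signal only. Each library has a smallest step. Of its values below 100 steps, 98.2% to 98.6% came within 0.02 of a whole number of steps, and dividing the total by the step gave the estimated reads. The FPKM values are those the authors deposited. Per the submitters' processing notes, which state no roles, TopHat2 2.0.9 and Cufflinks 2.1.1 were used with mm10. For annotation, strand and counting, settings were not given in the sources used here.

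Genotypes were compared with limma 3.58.1 (R 4.3.3) on log2(FPKM + 1) over 6 LSK libraries, with trend and robust moderation, two-sided, Benjamini-Hochberg adjustment over the 10608 genes whose mean reached 1 FPKM, and a threshold of 0.05. Intervals are for single genes. Named were all members, in each further list the 2 genes with the largest difference and any called, targets with a mean of at least 1 FPKM, and for Ezh1 and Ezh2 the 3 genes nearest by Pearson r. Cbx8, Phc1 and the other list genes counted in the LK comparison, single marker genes and the single cell cycle genes were named after their values were seen. Members and lists were chosen with earlier results of these data known. Groups and replicate numbers come from the titles. Deviations from group means correlated at 0.349, 0.332 and 0.645 for the same number, all above 0.1, so the numbers were read as pairs. Wild-type 2 with Uhrf1-/- 1 (0.213) and wild-type 1 with Uhrf1-/- 2 (0.159) were also above 0.1, so pairs 1 and 2 are poorly told apart. This rests on the data, as no label ties a number to a litter or day. P-values measure only the spread among the libraries, which may be technical. No 2 libraries agreed within sampling noise (lowest median chi-square per gene 3.33, against 0.455 expected). This lowest value was that of Uhrf1-/- 1 with Uhrf1-/- 2, so these 2 libraries were the most alike. Wild-type 1 was nearer to Uhrf1-/- 1 (6.26) and Uhrf1-/- 2 (7.68) than to wild-type 2 (33.8) and wild-type 3 (24.4). Coordinates are RefSeq GRCm38.p6, matched by Entrez gene ID. The fits were tested on simulated data, where both missed most of the smallest changes made, so a gene that was not called may have changed. Many genes that the fit with the block called at these changes had not been changed, so its calls may be false. The simulated replicates shared no pattern, so the fit with the block was not tested in the setting of these data.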

Additional observations from a re-analysis of the deposited data

How the results depend on the processing

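No member was called under any setting except Rnf2 with the replicate block without pair 1 (1 member, and 2 of the 55 other Polycomb and Trithorax genes, Mbd6 and Setd1a). Ezh1, Bmi1, Rnf2 and Cbx2 stayed below 0 and Ring1 above 0 in every setting run. The other 5 members changed sign in some. Leaving out 1 library at a time gave -0.092 to 0.297 for Ezh2, -0.259 to 0.071 for Eed, -0.286 to 0.23 for Suz12, -0.267 to 0.0011 for Cbx7 and -0.181 to 0.11 for Pcgf6. With the block and 1 pair left out, Ezh2 was -0.034 (pair 2), Eed 0.030 (pair 3), Suz12 0.079 (pair 1), Cbx7 0.061 (pair 2) and Pcgf6 0.018 (pair 2). Suz12 was 0.033 after median-of-ratios scaling and 0.070 on the count values, each with and without the block. Among the other named genes, leaving out 1 library gave -0.125 to 0.772 for Kdm6b, -0.163 to 0.814 for Setd1b and -0.096 to 0.558 for Cdkn1c, and the block without pair 2 gave -0.020 for Kdm6b and -0.0084 for Setd1b. Over all genes, limma called 12 higher and 6 lower. It called 131 and 88 with the replicate block, 111 and 98 with the block on the count values, 129 and 75 with the block after median-of-ratios scaling, and 108 and 80 with the block and a pseudocount of 0.1. Without a filter it called 0 and 0 (967 at an unadjusted p under 0.05), at a minimum of 5 FPKM 2 lower and on the count values 11 lower. Leaving out 1 library gave 0 to 3 higher and 0 to 1 lower, and the block without pairs 1, 2 and 3 gave 338, 13 and 117 higher and 318, 8 and 84 lower. The cause was not tested. The paralog ratios kept their direction in all settings, the LK count was 2 or 3 members, and replicate 3 set 2 or 3 members apart. The combined settings of block and scaling, count values or pseudocount were chosen after seeing the data.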
